A study of Homo sapiens with 40 samples.

Results

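The genes described here, 59 in number, encode proteins that drive or carry out mitosis: the condensin subunits and other chromosome proteins, the spindle assembly checkpoint, the mitotic kinases, regulators of mitotic entry and anaphase, centromere and kinetochore proteins, mitotic kinesins, and factors of spindle assembly and cytokinesis. They were fixed by name as a list of 7 role groups, with earlier results of these data known, out of 19676 protein-coding genes in the GENCODE 44 annotation. Each gene was represented by its H3K27ac peak and its CTCF peak with the highest mean read count within 2 kb of any of its annotated start sites, together with the enhancer peaks for which it was the nearest gene within 100 kb. All 59 had an H3K27ac peak in this window, against 66.4% of all protein-coding genes, and 27 had a CTCF peak.

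The cells were EndoC-βH3, a human beta-like cell line kept dividing by transgenes for telomerase and for large T antigen of the virus SV40. Large T blocks the tumour suppressors Rb and p53. All libraries are labelled genotype WT. Non-senescent cells, labelled control, carried the immortalizing transgenes, and senescent cells of the same line had received 4-hydroxytamoxifen (4-OHT) for 3 weeks, which activates a Cre recombinase that excises the transgenes. CTCF, which anchors chromatin loops, and H3K27ac, an acetylation found where promoters and enhancers are active, were each profiled by chromatin immunoprecipitation and sequencing (ChIP-seq) in 3 non-senescent and 3 senescent libraries. Rb and H3K4me1 had 2 libraries per state, and every library had its own input. The study rests on this single line. The removal of large T, the removal of telomerase and the 4-OHT treatment itself cannot be told apart from the senescent state, because they come together in every senescent library.

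Mitotic genes are silent in resting cells and are switched on together late in the cell cycle. Many of their promoters carry a cell cycle homology region (CHR), a short element bound by the DREAM complex in arrested cells and by MuvB with B-MYB and FOXM1 in dividing cells, downstream of one or more CCAAT boxes bound by NF-Y. The Rb family and the DREAM complex take part in their repression when cells leave the cycle, and large T disturbs both.

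The CHR was common in the promoters of these genes. RefSeq promoters (GRCh38.p14, 250 bases before to 50 after the start) were matched by symbol for 50 of the 59, and none was listed for TTK, AURKA, BUB3, TPX2, UBE2C, RACGAP1, KNL1, CENPM or BIRC5. For AURKB and TACC3 the RefSeq start lay 326 and 890 bases from the start of the canonical transcript, which their windows miss. Both count below as lacking a CHR. A CHR (TTTGAA or TTCGAA, either strand) stood in 39 of the 50, or 78.0%, against 13.0% of 15306 promoters of protein-coding genes. It lay wholly within 50 bases of the start in 64.0%, against 3.70% of all. The CCAAT box (CCAAT, either strand) was found in 74.0% of the 50 and in 36.6% of all promoters, and 46.0% against 12.8% held 2 or more. An E2F element (TTTGGCGC, TTTCCCGC, TTTCGCGC, TTCCCGCC or TTGGCGCC, either strand, letters that can overlap each other) was found in 14.0% and 8.11%. These matches are descriptions of letters in the window and not of bound sites.

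The 120 bases before the start are shown for 7 genes to show where the elements lie, with the capitals marking CHR and CCAAT matches on either strand. In PLK1 the CHR began at position -29 and the CCAAT box at -73, counted from the start. In ESPL1 they stood at -31 and -48, and in KIF11 at -28 and -53. MKI67 held 2 CHR matches, at -47 and -29, the second of which shares a base with a CCAAT match. In CDC20 the CHR at -65 lay between CCAAT boxes at -100 and -55. CENPA had a CHR at -18 and no CCAAT box in the stretch shown. NCAPG had a CHR at -35 and no CCAAT box in its window, and its H3K27ac change was small, as given further on.
MKI67, chr10:128126424-128126543, minus strand: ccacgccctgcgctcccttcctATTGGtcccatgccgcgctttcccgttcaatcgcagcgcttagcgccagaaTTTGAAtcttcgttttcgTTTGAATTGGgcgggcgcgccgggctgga
PLK1, chr16:23678769-23678888, plus strand: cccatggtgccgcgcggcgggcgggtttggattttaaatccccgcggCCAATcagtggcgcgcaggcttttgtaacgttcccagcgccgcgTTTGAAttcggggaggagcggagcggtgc
ESPL1, chr12:53268179-53268298, plus strand: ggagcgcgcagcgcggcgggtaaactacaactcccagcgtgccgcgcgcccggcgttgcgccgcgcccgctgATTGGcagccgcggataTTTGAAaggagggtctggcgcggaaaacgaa
CENPA, chr2:26785936-26786055, plus strand: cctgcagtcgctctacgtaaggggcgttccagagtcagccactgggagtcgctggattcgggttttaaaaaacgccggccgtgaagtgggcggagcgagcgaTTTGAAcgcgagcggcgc
CDC20, chr1:43358861-43358980, plus strand: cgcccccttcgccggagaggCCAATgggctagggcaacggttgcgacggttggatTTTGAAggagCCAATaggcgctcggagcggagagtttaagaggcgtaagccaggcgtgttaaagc
KIF11, chr10:92593010-92593129, plus strand: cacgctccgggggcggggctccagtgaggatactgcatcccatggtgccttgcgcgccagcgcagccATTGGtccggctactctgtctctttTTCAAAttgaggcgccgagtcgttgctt
NCAPG, chr4:17810859-17810978, plus strand: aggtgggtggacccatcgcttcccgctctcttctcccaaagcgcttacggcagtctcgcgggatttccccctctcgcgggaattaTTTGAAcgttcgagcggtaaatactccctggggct

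To ask how the active mark at mitotic promoters differed between the states, the authors' deposited comparison of H3K27ac was read out at each gene. A peak was taken as lost or gained where its fold change exceeded 1.5 and its adjusted p lay under 0.05 (the authors' DESeq2 Wald test, adjusted over all peaks). By the peak chosen for each gene, H3K27ac was lost in senescent cells at 41 of the 59, gained at 1 and not called at 17. The background over all 13059 protein-coding genes with a peak was 8.94% lost and 3.15% gained. The median log2 fold change, senescent over non-senescent, was -0.89 in the mitotic genes (quartiles -1.46 and -0.40) and 0.038 in all genes (quartiles -0.19 and 0.22). At 55 of the 59 the fold change was below 0, as it was at 44.7% of all genes. The mark was at least 2-fold lower at 24 promoters, at least 3-fold lower at 13 and at least 4-fold lower at 3. The deposited tables give no value for single libraries, so the mean normalized read count in each state is given here, worked out from the deposited mean count and fold change. The standard error (SE) of the fold change is the deposited one, from the authors' DESeq2 fit to the 3 and 3 libraries. In bulk chromatin, fewer cells with the mark and less mark per cell cannot be told apart.

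**Figure D1:**
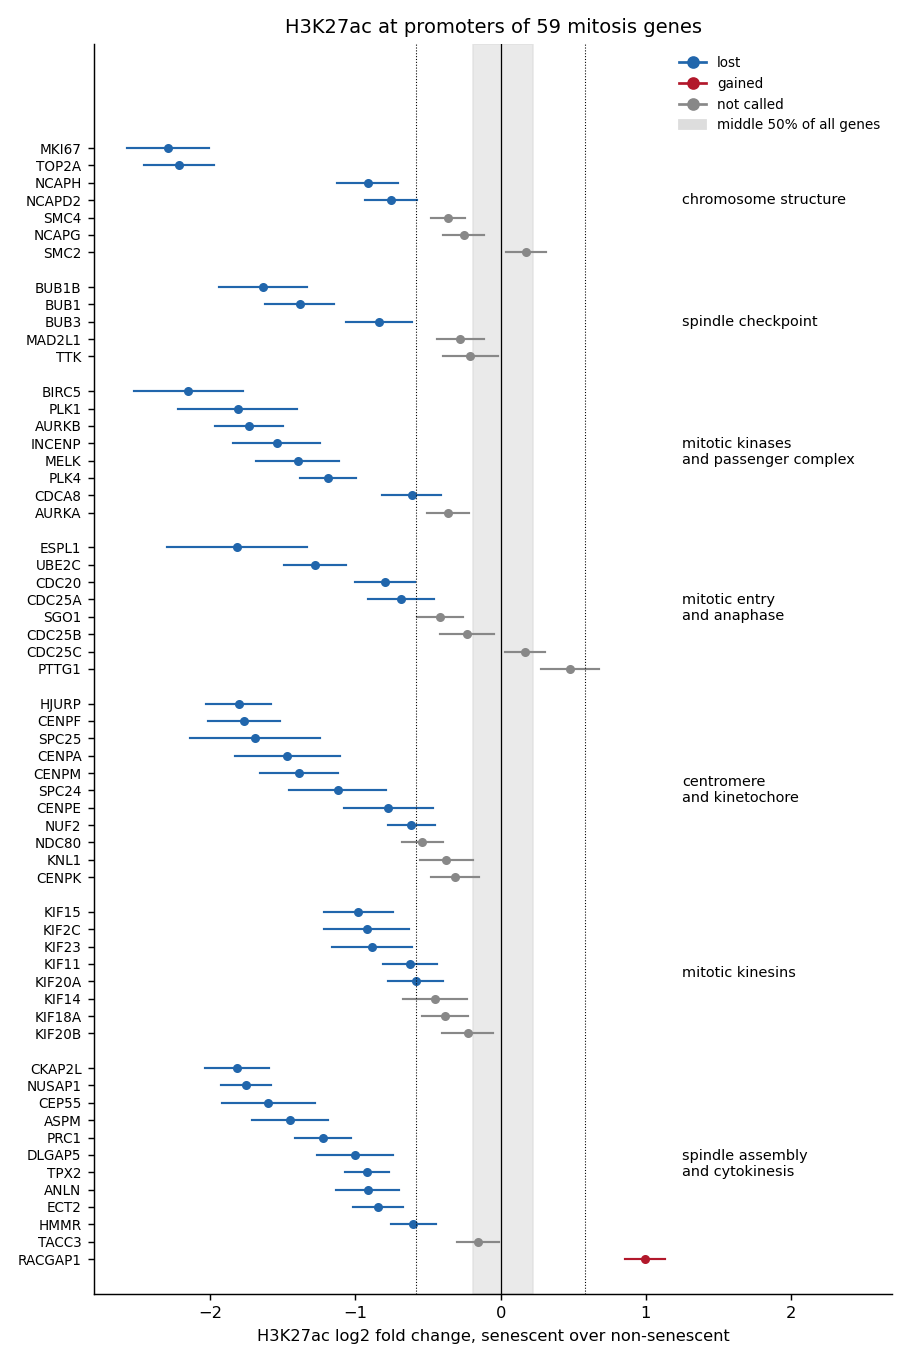
H3K27ac log2 fold change (senescent over non-senescent, horizontal axis) at the promoter peak of each of the 59 genes, ordered within the 7 role groups. Points are the authors' deposited values, bars are 95% intervals from the SE, dotted lines mark a fold change of 1.5, and the grey band spans the middle 50% of all protein-coding genes (-0.19 to 0.22). The 41 lost peaks (blue) occur in every role group, and RACGAP1 (red) is the only gained peak, which lies 34661 bp from its canonical start.

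Among chromosome proteins, 4 of 7 promoters lost H3K27ac and the median log2 fold change was -0.75. The lowest value of the whole set belonged to MKI67, which encodes the proliferation marker Ki-67, a coat of mitotic chromosomes. Its peak (hg38 chr10:128124837-128127400, covering the start site) had a mean of 452 normalized reads in non-senescent and 92.3 in senescent cells, a log2 fold change of -2.29 (SE 0.14, adjusted p = 1.10e-53). TOP2A, the topoisomerase that untangles sister chromatids, fell from 565 to 121 reads (chr17:40416813-40419081, -2.22, SE 0.12, adjusted p = 6.08e-69). Ordered by fold change among the 11254 distinct promoter peaks of all genes, MKI67 was number 9 from the lowest and TOP2A number 11. The condensin I subunits NCAPH (-0.91, SE 0.11) and NCAPD2 (-0.75, SE 0.090) were also lost. The remaining condensin genes were not called. SMC2, an ATPase subunit of both condensins, had the highest mean count of the set, with 4953 reads in non-senescent and 5598 in senescent cells over a peak of 10894 bp (0.18, SE 0.070, adjusted p = 0.0334). SMC4 stood at -0.36 (SE 0.061) and NCAPG at -0.25 (SE 0.073), both with an adjusted p under 0.05 but a fold change under 1.5.

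Of the 5 checkpoint genes, 3 lost the mark. These genes hold back anaphase until every chromosome is attached. BUB1B, which encodes the checkpoint inhibitor BUBR1, had the lowest value (315 to 101 reads, -1.64, SE 0.16, adjusted p = 5.38e-24), followed by the kinase BUB1 (445 to 171 reads, -1.38, SE 0.12, adjusted p = 6.50e-28) and by BUB3 (492 to 275 reads, -0.84, SE 0.12). MAD2L1, whose product MAD2 binds CDC20, had the highest count of the group, 1254 reads in non-senescent and 1033 in senescent cells (-0.28, SE 0.083, not called). TTK, the kinase MPS1, had the smallest difference of the group (-0.21, SE 0.095, adjusted p = 0.0698).

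Mitotic kinases and the chromosomal passenger complex lost the mark at 7 of 8 promoters, with a median of -1.47, the lowest of the 7 role groups. All 4 genes of the passenger complex, which corrects wrong attachments, were lost. BIRC5, encoding survivin, was lowest (268 to 60.3 reads, -2.15, SE 0.19, adjusted p = 2.30e-27). The kinase AURKB followed (553 to 166 reads, -1.73, SE 0.12, adjusted p = 1.34e-44), then the scaffold INCENP (-1.54, SE 0.15) and CDCA8, encoding borealin (-0.61, SE 0.10). PLK1, a kinase of mitotic entry and spindle assembly, fell from 165 to 46.9 reads (-1.81, SE 0.21, adjusted p = 2.27e-16). MELK (-1.40, SE 0.15) and the centriole kinase PLK4 (-1.19, SE 0.10) were lost as well. AURKA, the centrosomal Aurora kinase, had the highest count and the smallest change of the group (2294 to 1785 reads, -0.36, SE 0.075, not called), in a peak that also covers the start of CSTF1.

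In mitotic entry and anaphase, 4 of 8 promoter peaks were lost. ESPL1 encodes separase, which cuts cohesin, and had the lowest value (133 to 37.8 reads, -1.81, SE 0.25, adjusted p = 3.74e-12). UBE2C, the ubiquitin-conjugating partner of the anaphase-promoting complex (-1.28, SE 0.11), the complex's activator CDC20 (523 to 301 reads, -0.80, SE 0.11, adjusted p = 1.03e-12) and the phosphatase CDC25A (-0.69, SE 0.12) followed. SGO1, a protector of centromeric cohesin (-0.42, SE 0.080), and CDC25B (-0.23, SE 0.094) were not called. CDC25C and PTTG1, which encode the mitotic entry phosphatase and securin, stood above 0 at the peaks with their highest counts, at 0.17 and 0.48, and are taken up again below because those peaks do not lie at their main start sites. CDC25C had the highest count of the group at its chosen peak, 1255 reads in non-senescent and 1411 in senescent cells.

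At centromere and kinetochore genes, 8 of 11 were lost, with a median of -1.12. HJURP, the chaperone that loads the centromeric histone, was lowest (753 to 215 reads, -1.81, SE 0.12, adjusted p = 1.18e-52), and that histone, CENPA, was at -1.47 (209 to 75.4 reads, SE 0.18, adjusted p = 3.56e-14). CENPF (-1.77, SE 0.13), SPC25 (-1.69, SE 0.23), CENPM (-1.39, SE 0.14), SPC24 (-1.12, SE 0.17), the motor CENPE (-0.77, SE 0.16) and NUF2 (-0.61, SE 0.084) were lost too. SPC24, SPC25, NUF2 and NDC80 build the 4-subunit NDC80 complex that grips microtubules. NDC80 itself fell short of the fold threshold (-0.54, SE 0.072, adjusted p = 1.52e-12). CENPK, of the inner kinetochore, had the highest count and the smallest difference (1259 to 1012 reads, -0.32, SE 0.083), and the scaffold KNL1 was at -0.37 (SE 0.092).

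Of the mitotic kinesins, 5 of 8 were lost, with a median of -0.60 and a range from -0.98 to -0.23. KIF15, a spindle motor, was lowest (442 to 224 reads, -0.98, SE 0.12, adjusted p = 1.10e-14), followed by KIF2C (-0.92, SE 0.15), KIF23 of centralspindlin (-0.89, SE 0.14), KIF11, the motor that separates the spindle poles (-0.62, SE 0.096), and KIF20A. KIF20A lay at the fold threshold (-0.59, SE 0.098). KIF14 (-0.45, SE 0.11), KIF18A (1149 to 879 reads, the highest count of the group, -0.39, SE 0.081) and KIF20B (-0.23, SE 0.091, adjusted p = 0.0338) were not called.

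Spindle assembly and cytokinesis genes lost the mark at 10 of 12 promoters. CKAP2L, a spindle protein, was lowest (766 to 217 reads, -1.82, SE 0.11, adjusted p = 1.07e-56). NUSAP1, which bundles spindle microtubules, had the smallest adjusted p of all 59 (1332 to 395 reads, -1.75, SE 0.087, adjusted p = 1.80e-87), in a peak shared with the divergent gene OIP5. CEP55 (-1.60), ASPM (-1.45), PRC1 (-1.22), TPX2 (-0.92), ANLN (-0.92), ECT2 (-0.84) and HMMR (-0.60) were also lost, and DLGAP5 was 2.01-fold lower. TACC3 was not called (-0.16, SE 0.073, adjusted p = 0.0752). RACGAP1, the other subunit of centralspindlin, gave the only gained call, at a peak that covers none of its start sites and had the highest count of the group, with 1721 reads in non-senescent and 3433 in senescent cells (1.00, SE 0.070, adjusted p = 4.99e-44). The peak over its canonical start was lost (-0.90, SE 0.11, adjusted p = 3.06e-15).

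**Figure D2:**
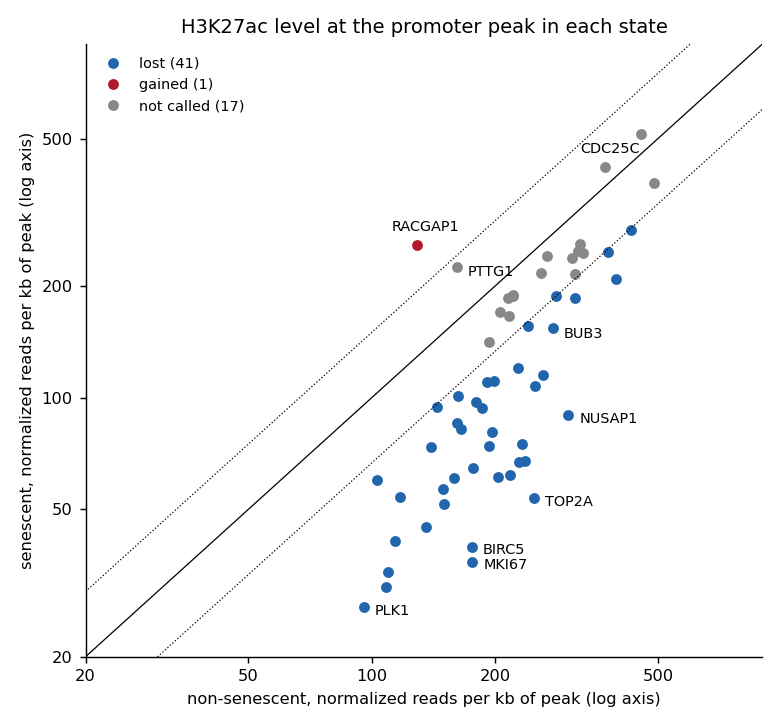
H3K27ac in non-senescent (horizontal) and senescent cells (vertical) at the 59 promoter peaks, as mean normalized reads per kb of peak on log axes, worked out from the deposited mean count and fold change. The solid line marks equal levels and the dotted lines a fold change of 1.5. The median was 215 reads per kb in non-senescent and 107 in senescent cells, and the 41 lost peaks (blue) lie on or under the lower dotted line, with RACGAP1 (red) above the upper one.

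Higher fold changes went with higher read counts and wider peaks. Across the 59 genes the rank correlation of the log2 fold change with the mean count of the peak was 0.74 (Spearman's rho), with its width 0.63, and with its GC content -0.49. Across the 11254 distinct promoter peaks of all genes the same values were 0.29, 0.24 and -0.19. Genes are not independent replicates, all points come from the same 6 libraries, and the mean count contains the senescent reads, so these are descriptions. With the non-senescent level per kb, which leaves the senescent reads and the width out, rho was 0.40 in the 59 and 0.11 in all. The median peak of the set was 2731 bp wide, against 2976 bp over all genes, and its median mean count was 484 against 601.

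Some promoters are shared with a divergent or overlapping gene, and the set was split by this. Of 16 member peaks that cover the gene's own start and a start of another protein-coding gene, 8 were lost, with a median of -0.56. Of 41 peaks that cover starts of the mitotic gene alone, 33 were lost, with a median of -1.19. Over all genes, the lost share was 4.01% for shared and 10.7% for unshared peaks, with medians of 0.072 and 0.020. That background was split only by whether another gene's start is covered, so it includes peaks that miss the gene's own start. The difference between shared and unshared peaks was not tested. Shared and not called were SMC4 with IFT80, NCAPG with DCAF16, AURKA with CSTF1, CENPK with PPWD1, NDC80 with METTL4, KIF18A with METTL15, TACC3 with SLBP and CDC25C with FAM53C. Shared and lost were NCAPD2 with MRPL51, CDCA8 with C1orf109, NUF2 with RGS5 and KIF15 with KIAA1143. KIF20A with BRD8, ANLN with MATCAP2, HMMR with NUDCD2 and NUSAP1 with OIP5 were also shared and lost. Reads in a shared peak, lost or not called, cannot be assigned to either gene.

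The peak with the highest count was not always the peak at the gene's main start. For 4 genes it missed the start of the canonical transcript. CDC25C shows this most plainly. Its chosen peak lies at an alternative start 4804 bp away that it shares with FAM53C, whereas the peak over its canonical start (chr5:138330074-138332131) had 408 reads in non-senescent and 88.0 in senescent cells, a log2 fold change of -2.21 (SE 0.15, adjusted p = 8.29e-46). The PTTG1 peak over the canonical start (chr5:160421526-160423110) fell from 198 to 59.4 reads (-1.74, SE 0.19, adjusted p = 9.78e-18), while the chosen peak, 1514 bp away, stood at 0.48 (SE 0.10, adjusted p = 2.09e-05, fold change under 1.5). Both peaks also cover a start of the neighbouring gene SLU7.

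RACGAP1 has 3 peaks that moved in both directions. The peak over the canonical start (chr12:50024188-50026524) was lost (532 to 285 reads, -0.90, SE 0.11, adjusted p = 3.06e-15). A peak at an alternative start 6675 bp away (chr12:50015109-50018819) was gained (499 to 823 reads, 0.72, SE 0.088, adjusted p = 7.94e-15). The chosen peak, 13324 bp wide (chr12:49977510-49990833), reaches only to 1525 bp from the nearest alternative start and lies 34661 bp from the canonical one. TACC3 was at -0.33 (SE 0.096) over its canonical start. With each gene read at the peak nearest to its canonical start, 44 of the 59 were lost, CDC25C, PTTG1 and RACGAP1 among them, and 0 were gained (the authors' DESeq2 Wald test). At an unadjusted p under 0.05 with no fold threshold, 58 were lower and 1, SMC2, was higher. These second peaks are named after their values were seen. PLK1 also has a weak peak 1402 bp from its start that was gained (24.1 to 46.6 reads, 0.95, SE 0.34, adjusted p = 0.0161), the reverse of its main peak.

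**Figure D3:**
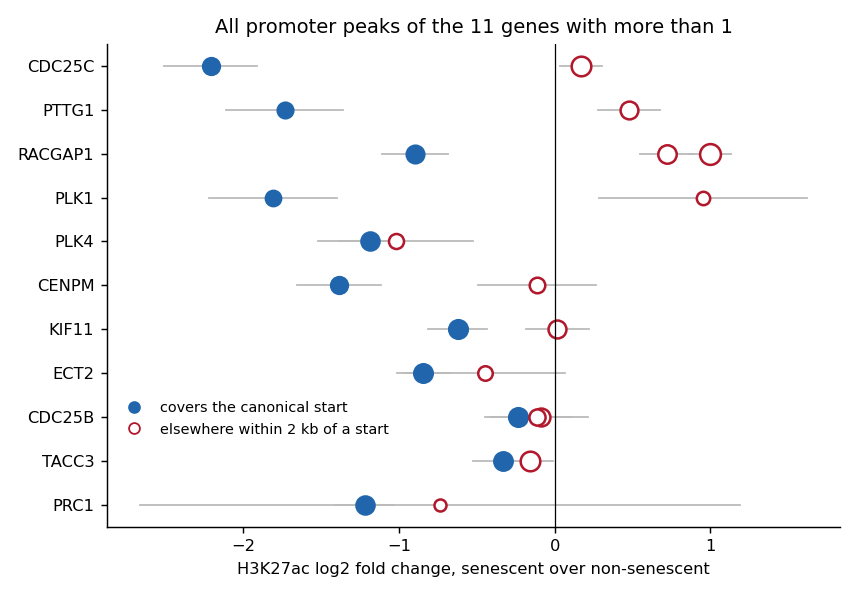
H3K27ac log2 fold change (horizontal axis, senescent over non-senescent) of every promoter peak of the 11 genes with more than 1, with 95% intervals. Filled points cover the canonical start, open points lie at other positions within 2 kb of an annotated start, and larger points have higher mean counts. For CDC25C, PTTG1, RACGAP1 and PLK1 the filled point lies below 0 (-2.21, -1.74, -0.90 and -1.81) and open points lie above it.

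Motif content was set beside the change. A call from the peak with the highest count counts CDC25C and PTTG1 as not lost and reads TACC3 outside its motif window, so the split is given also by the peak nearest to the canonical start, an alternative chosen after seeing the data. Of the 50 genes with a promoter sequence, 77.8% of the 36 with lost H3K27ac and 78.6% of the other 14 had a CHR. By the nearest peak the shares were 76.3% of 38 and 83.3% of 12. A CCAAT box stood in 77.8% and 64.3%, or 78.9% and 58.3% by the nearest peak, and 2 or more in 55.6% and 21.4%, or 55.3% and 16.7%. An E2F element stood in 16.7% and 7.14%, or 15.8% and 8.33%. At the peaks with the highest count, the median log2 fold change was -0.92 in 39 genes with a CHR and -0.77 in 11 without, -0.91 in 37 with a CCAAT box and -0.77 in 13 without, and -1.47 in 7 with an E2F element and -0.84 in 43 without. By the nearest peak the medians with and without the element were -0.98 and -0.91 for the CHR and -1.12 and -0.77 for the CCAAT box. For the E2F element they were -1.47 and -0.91. The differences between these shares and medians were not tested. CDC25C, with a log2 fold change of -2.21 at its canonical start, had its CHR at -30 and its CCAAT box at -85.

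Promoters of neighbouring genes were read out to see how far the change reached. Within 100 kb of the canonical starts, the other protein-coding genes had 100 promoter peaks that are not peaks of the set, of which 11 were lost and 2 gained, with a median log2 fold change of 0.065. Over all genes 8.94% were lost and 3.15% gained, with a median of 0.038, so the neighbours' shares lie near the background. PAK6, encoding a kinase, near BUB1B (-1.27, SE 0.18), AFMID beside BIRC5 (-1.28, SE 0.23) and RARG near ESPL1 (-0.99, SE 0.19) were among the lost neighbours, which are named after their values were seen.

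Distal enhancers of the same genes were read out next, from the same H3K27ac libraries. Enhancer peaks are H3K27ac peaks that overlap an enhancer deposited for either state and lie beyond 2 kb of every protein-coding start. A mitotic gene was the nearest gene within 100 kb for 21 such peaks, belonging to 16 genes, so 27.1% of the set had one, against 28.8% of all protein-coding genes. Of the 21, 3 were lost and 4 were gained, with a median log2 fold change of -0.013. The background over all 11180 such peaks was 18.4% lost and 14.4% gained, with a median of -0.031. At the 15 enhancer peaks of 11 genes whose promoter was lost by the peak with the highest count, 2 were lost, 1 was gained and the median was -0.16. This split leaves out RACGAP1 and PTTG1, which were lost at the peak over the canonical start and whose enhancer peaks were gained.

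Lost enhancer peaks were those nearest to BUB3 (48427 bp away, 90.7 to 35.4 reads, -1.36, SE 0.28, adjusted p = 9.97e-06), MELK (42530 bp, 33.7 to 13.6 reads, -1.31, SE 0.42, adjusted p = 0.00692) and MAD2L1 (16613 bp, 70.9 to 36.8 reads, -0.95, SE 0.28, adjusted p = 0.00295). All 3 overlap enhancers listed in non-senescent cells alone. The strongest gain lay 4151 bp from an alternative start of RACGAP1, where reads rose from 104 to 313 (1.59, SE 0.15, adjusted p = 2.67e-23), in an enhancer listed in senescent cells alone. It lies between the gained peaks of that gene. A second MAD2L1 peak (9310 bp, 445 to 682 reads, 0.61, SE 0.11, adjusted p = 5.41e-08) and peaks nearest to PTTG1 (10743 bp, 136 to 236 reads, 0.80, SE 0.15, adjusted p = 1.54e-06) and CENPF (57037 bp, 256 to 405 reads, 0.66, SE 0.13, adjusted p = 2.62e-06) were gained. The CENPF promoter was lost and its enhancer peak gained, as was the case for RACGAP1 and PTTG1 when read over the canonical start. The enhancer peak nearest to MKI67, 29328 bp away, had 321 and 351 reads (0.13, 95% interval -0.10 to 0.36), against the 4.89-fold lower level at the promoter. Nearest-gene assignment does not show that an enhancer acts on that gene.

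**Figure D4:**
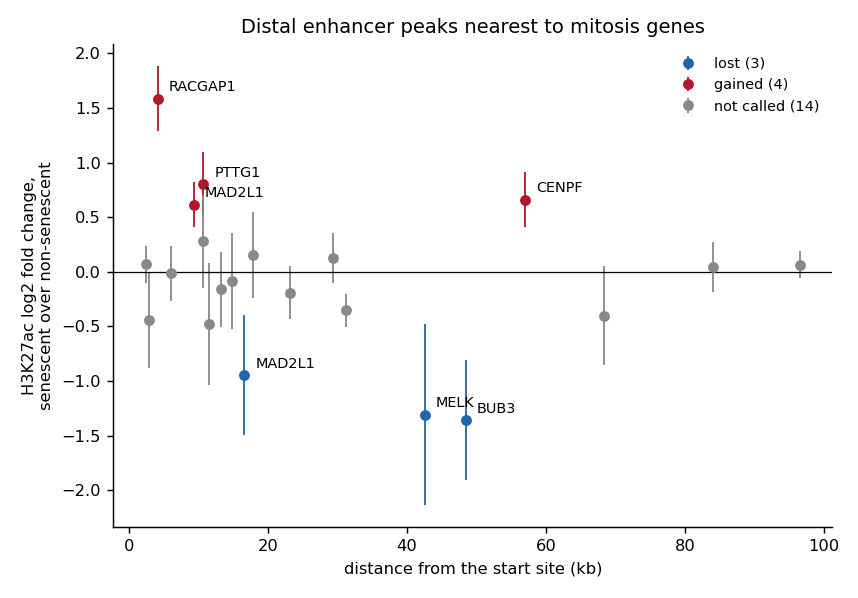
H3K27ac log2 fold change (vertical axis, senescent over non-senescent, with 95% intervals) of the 21 distal enhancer peaks nearest to a mitotic gene, against their distance from the start site in kb. Blue points are lost, red gained and grey not called. The 3 lost and 4 gained peaks carry the gene's name, and the highest is the peak near RACGAP1 (1.59).

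A CTCF peak lay within 2 kb of an annotated start of 27 of the 59 genes, or 45.8%, against 47.6% of all protein-coding genes. Only 12 of these peaks covered a start of the gene, and some lie far from the canonical one. The study's CTCF thresholds were used (adjusted p under 0.2 and fold change above 1.5, the authors' DESeq2 Wald test). The study applied them only to peaks that held the CTCF motif, whereas every peak was kept here. Of the 27 peaks, 3 were lost, 1 was gained and 23 were not called. For 3 of the uncalled peaks, those of INCENP, KIF15 and HMMR, the adjusted p is missing. The background over 9366 genes with a CTCF peak was 4.61% lost and 0.491% gained. The median log2 fold change was -0.045 in the mitotic genes and -0.17 in all genes, with 16 of 27 values below 0 against 71.3% of all. Recentred on the median of all CTCF promoter peaks, the median of the set became 0.13, so its sign rests on the scaling. These peaks were thin, with a median mean count of 77.3 and 12 of 27 under 50 reads, and SEs from 0.097 to 0.98.

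NCAPD2 had a lost CTCF peak over its start, shared with MRPL51 (69.4 to 33.0 reads, -1.07, SE 0.31, adjusted p = 0.0243). The lost peak of ESPL1 (52.5 to 23.4 reads, -1.17, SE 0.35, adjusted p = 0.0373) also covers the start, and that of PRC1 (35.6 to 15.9 reads, -1.17, SE 0.43, adjusted p = 0.102) lies 1053 bp away. All 3 genes lost promoter H3K27ac as well, and they are among 19 of the 27 genes with a CTCF peak that did so. CENPM, whose promoter lost H3K27ac, had the gained CTCF peak, 347 bp from an alternative start and 4851 bp from the canonical one (171 to 266 reads, 0.64, SE 0.15, adjusted p = 0.00531). A weaker CENPM peak, which covers a start 219 bp from the canonical one, had 24.1 and 23.9 reads (-0.016, SE 0.45, adjusted p = 0.990), and with the peak nearest to the canonical start read for each gene, 3 CTCF peaks were lost and none was gained. The same 4 calls were made after the trend of CTCF change with GC content was removed, with adjusted p-values of 0.0664, 0.125, 0.131 and 0.000611 in the same order.

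The CTCF core (the letters CCA, 2 free bases, AGG, a free base and GGC, either strand) was present in 4 of the 27 peaks, or 14.8%, against 10.7% of the promoter CTCF peaks of all genes. It was found in the gained CENPM peak, as in the weaker peak of that gene, and in 3 chosen peaks whose fold changes were near 0, those of KIF11 (-0.0049, SE 0.13), ECT2 (-0.10, SE 0.14) and TACC3 (-0.0081, SE 0.13). The KIF11 peak lies 17461 bp from the canonical start and covers a start of IDE, and the TACC3 peak lies 4001 bp from the canonical start. None of the 3 lost peaks held it. The 30 bases around each core are shown so that the gained site can be set beside the other 3, with the core in capitals and all 4 on the minus strand of hg38.
CENPM, chr22:41941445-41941474: tgtctgtggCCATGAGGTGGCaggccaggc
KIF11, chr10:92575154-92575183: ttgcaaacaCCACTAGGAGGCttgccataa
ECT2, chr3:172750530-172750559: cggatgtggCCAGGAGGTGGCggtggtggc
TACC3, chr4:1726414-1726443: ccaggatggCCAGCAGGGGGCgtggtaaac

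**Figure D5:**
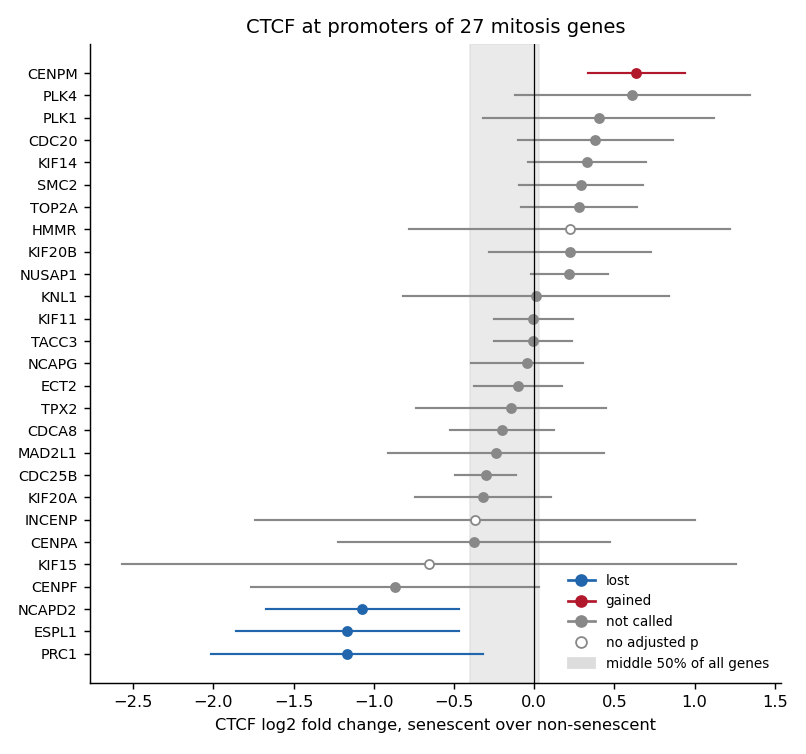
CTCF log2 fold change (horizontal axis, senescent over non-senescent) at the promoter peaks of 27 mitotic genes, with 95% intervals. Blue points are lost, red gained and grey not called, open points had no adjusted p, and the grey band spans the middle 50% of all genes with a CTCF peak (-0.40 to 0.033). NCAPD2, ESPL1 and PRC1 lie below the band and CENPM above it.

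The changes of H3K27ac and CTCF were set beside each other. Across the 27 genes with both peaks, Pearson's r between the log2 fold changes was 0.15 and Spearman's rho 0.13, given as a description over genes of the same cells. Each peak was chosen by its own count, so the marks are not always read at the same place. The chosen peaks of TOP2A, KIF11, CDC25B, TACC3, CENPM and INCENP do not overlap each other, which limits what these values say about single promoters. Of the 19 that lost H3K27ac, CTCF stood below 0 in 12 and above 0 in 7. TOP2A had 4.65-fold less H3K27ac and, at a CTCF peak beside the H3K27ac peak, a CTCF value of 0.28 (SE 0.18, adjusted p = 0.419). H3K27ac was lost at 19 of 27 promoters with a CTCF peak (median -0.80) and at 22 of 32 without one (median -0.92).

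No mitotic gene had a senescence-specific Rb region within 2 kb of a start site, among 2435 regions in the authors' list. Over all protein-coding genes 308, or 1.57%, had one. The window could be widened to 5 kb without a match, and the nearest region to any of the 59 was 25244 bp away. The list holds regions called in senescent cells with non-senescent libraries as control, so Rb bound equally in both states would not be in it. With so low a share over all genes, the lack of a match among 59 genes says little. The paper reports that many cell-cycle genes with deactivated promoters gained Rb in senescent cells, shown as pooled signal near such genes. That signal was not read out here.

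Other genes of the mitotic machinery were read out in the same way. These lists were fixed by name with earlier results of these data known, and their counts are set against 8.94% lost and 3.15% gained over all genes. Of 30 other kinetochore genes, which include the constitutive centromere network, 7 were lost and 0 gained, with a median of -0.31, and 18 were lower and 2 higher at an unadjusted p under 0.05. OIP5, at the peak it shares with NUSAP1, was lowest (-1.75) and PMF1 was highest (0.19, SE 0.065). Among 15 subunits and activators of the anaphase-promoting complex, 0 were called by the authors' DESeq2 test, with 1 lower and 4 higher at an unadjusted p under 0.05, a median of 0.040 and a range from ANAPC11 (-0.39, SE 0.057) to ANAPC2 (0.31, SE 0.089). The 3 subunits specific to condensin II were not called, although 2 were lower at an unadjusted p under 0.05, and ranged from NCAPH2 (-0.48, SE 0.081) to NCAPD3 (0.019, SE 0.092). In the augmin complex, which builds microtubules within the spindle, 4 of 8 were lost, from HAUS4 (-1.37, SE 0.14) to HAUS6 (-0.0021, SE 0.11). Of 30 other spindle and cytokinesis genes, 15 were lost and 0 gained, with a median of -0.54, and 23 were lower and 3 higher at an unadjusted p under 0.05. FAM83D, which targets a kinase to the spindle, was lowest (-2.16, SE 0.20), and NUMA1, a spindle pole organizer, was highest (0.55, SE 0.065, fold change under 1.5).

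The cells were checked against markers. All 11 beta cell markers had a promoter H3K27ac peak, with a median of 261 reads per kb in non-senescent cells against 181 over all genes with a peak. IAPP (44.5 reads per kb), MAFA (50.3), SLC30A8 (152) and ABCC8 (161) lay below that value over all genes. Of the markers of other cells, CPA1, of acinar cells, had 279 reads per kb, above the beta cell median, KRT19 had 153 and SST 64.9. IAPP, which encodes amylin, was gained (0.93, SE 0.15), PCSK1, a proinsulin convertase, was lost (-1.41, SE 0.085) and the other 9 were not called. Among these 9, INS stood at 0.34 (SE 0.059) and PDX1 at 0.29 (SE 0.050), with fold changes under 1.5. At an unadjusted p under 0.05 (the authors' DESeq2 Wald test), 5 of the 11 were higher and 2 lower. Of 9 markers of other pancreatic and stromal cells, GCG, PPY, PRSS1, PTPRC, PECAM1 and COL1A1 had no peak within 2 kb. SST (-0.86, SE 0.29) and KRT19 (-0.74, SE 0.078) were lost, and CPA1 (0.19, SE 0.069) was not called. The part of these markers in the changes at mitotic genes was not tested.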

How the data were processed

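ChIP-seq of H3K27ac, CTCF, H3K4me1 and Rb had been carried out in 40 libraries, inputs included. Per the labels and the study's methods, the authors aligned reads to hg38 with Bowtie2, called peaks with HOMER or MACS2 and compared read counts in peaks between states with DESeq2; tool versions are not given in the sources used here. The deposited signal is the mean over libraries of counts divided by size factors, so a shift shared by all peaks would not show. The deposited log2 fold change, its standard error, the Wald score and the p-value with its adjusted p-value are the authors', and the adjusted p-value is missing for 11972 CTCF peaks, which stayed uncalled. The region lists of enhancers and Rb hold positions only.

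The tables hold no values per library, so no model was refitted, depth per library is not given, and the study's thresholds were applied to the authors' fold changes and p-values. The labels do not say whether libraries came from separate cultures, so the p-values refer to these libraries and may not cover variation between cultures. State means were computed as if both states had equal weight. Intervals are 95% (fold change ± a normal quantile times the SE). Start sites are those of protein-coding transcripts of GENCODE 44 on hg38, whose chromosome names match the files. Promoters came from RefSeq.

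Members, gene lists and tests were chosen with earlier results of these data known. The genes named are the lowest and highest fold change and the highest count of each role group, MKI67, TOP2A, BUB1, AURKB, PLK1, CDC20 and CENPA, every member with a called CTCF, called enhancer or gained peak, and the lowest and highest of other lists. The remaining members and second peaks were named after their values were seen. Alternatives were thresholds, windows, the choice of peak, recentring, GC content and a test against a fold change of 1.5. Calculations used Python 3.11.15 with pandas 2.3.3, scipy 1.17.1, pyfaidx 0.9.0.4 and samtools 1.23.1, and were checked on simulated data.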

Additional observations from a re-analysis of the deposited data

How the results depend on the processing

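The 41 lost H3K27ac promoters became 24 with a fold change above 2 and 27 with a Wald test against a fold change of 1.5. Under the other settings they ranged from 33, of the 42 peaks without another gene's start, to 53 with no fold threshold. That last count is of lower peaks at an adjusted p under 0.05, whatever their size. The 1 gained call, at a RACGAP1 peak away from its starts, became 0 with a fold change above 2, with the peak nearest to the start site and with the canonical transcript only, and 4 with no fold threshold. In the 1 kb window the count was also 1, but that window does not reach this peak. The median log2 fold change of -0.89 became -1.16 in peaks without another start site and stayed between -0.92 and -0.89 elsewhere. For CTCF, the 3 lost peaks became 1 at a mean count of at least 50, where 15 genes had a peak. The 1 gained CTCF peak became 0 with a fold change above 2 and with the peak nearest to the start site, and 2 when recentred. The 4 gained enhancer peaks became 1 with a fold change above 2, and the 3 lost became 2. The median over enhancer peaks, -0.013, turned positive (0.043) when 0.5 or more of a peak had to lie in the listed enhancer and with promoter-proximal peaks included, and the CTCF median of -0.045 turned to 0.044 with the GC trend removed and to 0.13 recentred. No Rb region was found at any window. No paired analysis was possible because the tables hold no values per library, and for the same reason no replicate could be left out. Low counts limit CTCF, where SEs reached 0.98.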
